A study of Schizosaccharomyces pombe with 8 samples.

Results

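The features described here are annotated noncoding RNAs of the fission yeast Schizosaccharomyces pombe that lie between coding genes. They were chosen by position. A row of the deposited noncoding count table was kept where its span overlaps no row of the coding count table on either strand. Of 1528 noncoding rows, 426 met that condition, 2 of these were set aside by rule and are not analysed here, and 424 make up the set. The other noncoding rows overlap a coding gene on the opposite strand alone (812) or on their own strand (290). At the border of the rule, SPNCRNA.1572, SPNCRNA.1600 and SPNCRNA.58 abut a coding row with 0 bases between and were kept, whereas SPNCRNA.881 overlaps one by 1 base and SPNCRNA.413 by 2 bases and were not.

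RNA was sequenced from 8 libraries in 4 groups of 2: a wild-type strain (wt) and strains labelled nht1-delta, iec1-delta and iec5-delta, each deletion in a gene for a subunit of INO80. All strains grew in YEA, a rich yeast extract medium, to mid-log phase, and ribosomal RNA was removed from the total RNA before a strand-specific kit was used. Each group is 1 strain by its label (SPJ1577 for wild type, CS2354 for nht1, CS2379 for iec1 and CS2370 for iec5). The labels list no other allele and do not say whether the libraries of a group came from separate cultures. Coding counts per library ran from 2208165 to 3426063. Reads of iec5 were low in its own strain, at 3.29 and 1.46 CPM against 12.4 and 12.8 in wild type, where CPM is a count scaled by the coding total of its library, after TMM scaling. Reads of nht1 stood at 24.8 and 34.9 CPM in the libraries labelled nht1 against 48.6 and 41.6 in wild type, which did not pass the test (edgeR adjusted p = 0.212). Reads of iec1 went against the label, at 95.4 and 88.4 CPM in the libraries labelled iec1 against 40.5 and 36.4 in wild type (log2 fold change 1.25, edgeR adjusted p = 0.000741). Below, nht1 and iec1 therefore name labelled libraries, not strains shown to lack these genes.

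INO80 is an ATP-driven complex that slides and edits nucleosomes, and it acts among other places at the nucleosome-poor stretches where transcription starts. In yeasts such a stretch often fires in both directions. A noncoding RNA then leaves the promoter of a gene on the opposite strand, and such a pair is one form of divergent arrangement. Many of these RNAs are short-lived, because the nuclear exosome and its helpers degrade them, and in fission yeast those from centromeres, the mating-type locus and subtelomeres are also held down by heterochromatin.

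The sequences around the start of 5 features, and all of a short sixth one, are given because the comparisons below turn on them. Letters are from RefSeq build ASM294v3, 5' to 3' on the strand of the feature, and each of these features has the same span there as in the deposited table, which is on ASM294v2. In the first 5, capitals mark the first 50 bases of the feature, and the lower-case run before them is the stretch upstream, up to 250 bases and no further than the nearest coding row. SPNCRNA.1153 and SPNCRNA.472 lie one after the other, 346 bases apart, in the gap between bfr1 and wee1. SPNCRNA.738 starts 134 bases from pas1 and SPNCRNA.1161 starts 41 bases from ada2, so their upstream stretches are shared with those genes. SPNCRNA.1343 lies beside the phosphate-responsive gene tgp1. SPNCRNA.1094, printed whole and in lower case, with nothing upstream of it, lies near ribosomal RNA genes at the start of chromosome III.
SPNCRNA.1153: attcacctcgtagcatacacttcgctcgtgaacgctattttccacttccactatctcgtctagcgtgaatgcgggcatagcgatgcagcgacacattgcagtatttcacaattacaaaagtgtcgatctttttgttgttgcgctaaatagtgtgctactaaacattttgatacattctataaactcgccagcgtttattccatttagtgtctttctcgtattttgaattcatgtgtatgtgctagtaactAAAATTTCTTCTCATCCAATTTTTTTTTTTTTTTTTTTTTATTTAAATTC
SPNCRNA.472: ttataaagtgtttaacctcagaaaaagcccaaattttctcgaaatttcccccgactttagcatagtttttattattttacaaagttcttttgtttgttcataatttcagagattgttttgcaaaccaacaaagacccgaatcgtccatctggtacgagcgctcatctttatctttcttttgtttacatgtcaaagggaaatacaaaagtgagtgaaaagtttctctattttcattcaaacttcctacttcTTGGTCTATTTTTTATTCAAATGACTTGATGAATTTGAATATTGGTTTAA
SPNCRNA.738: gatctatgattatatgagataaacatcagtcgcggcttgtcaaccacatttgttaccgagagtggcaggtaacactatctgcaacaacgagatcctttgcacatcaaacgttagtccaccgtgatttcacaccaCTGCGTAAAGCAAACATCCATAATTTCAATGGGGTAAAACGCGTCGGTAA
SPNCRNA.1161: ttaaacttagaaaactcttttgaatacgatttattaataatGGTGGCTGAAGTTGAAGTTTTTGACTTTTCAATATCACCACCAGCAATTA
SPNCRNA.1343: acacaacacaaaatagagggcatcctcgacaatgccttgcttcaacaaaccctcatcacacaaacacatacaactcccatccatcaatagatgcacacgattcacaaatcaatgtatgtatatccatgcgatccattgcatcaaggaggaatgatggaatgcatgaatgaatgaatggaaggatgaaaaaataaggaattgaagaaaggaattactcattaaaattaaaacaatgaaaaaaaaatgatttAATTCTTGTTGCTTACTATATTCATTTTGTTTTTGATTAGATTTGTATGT
SPNCRNA.1094: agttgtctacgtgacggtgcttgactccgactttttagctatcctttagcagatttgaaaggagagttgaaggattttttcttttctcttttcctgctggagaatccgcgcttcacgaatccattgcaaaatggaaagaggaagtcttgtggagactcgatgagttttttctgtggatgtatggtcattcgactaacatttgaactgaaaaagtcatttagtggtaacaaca
Motifs were looked for on both strands of 300-base windows, from 250 bases before to 50 bases after the start, of the 372 features with the same span in both builds. The TATA-box letters TATAAA were in 177 windows (47.6%), and in 6 of the 16 windows of features called higher in any strain against wild type and 3 of the 7 of features called lower. The letters TGACGT, the core recognised by Atf1-type stress factors, were in 36 windows (9.68%), in 0 of those 16 and in 2 of those 7. The letters TTACTAA, a site of the AP-1-like factor Pap1, were in 44 windows (11.8%), in 1 of the 16 and in 1 of the 7. None of these motifs contains another, and a match is a run of letters, not a shown binding site.

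Most of the 424 features were faint. In wild type 275 of them had a count and 149 had none, and 121 were at 0 in all 8 libraries, of which 92 overlap another noncoding row. Among the 275, the median wild-type level was 3.50 CPM per kb. Only 64 features stood above 10 CPM per kb, and 8 stood above 100. A count of 3 was worth 0.875 to 1.38 CPM, so a feature at 0 in a library was not detectable below that level. The median length was 596.5 bases, with a range of 56 to 5123, and the median gap to the nearest coding row was 239.5 bases. A feature was taken as divergent if its nearest coding row lay on the opposite strand and was transcribed away from it, at any gap. By the arrangement of that nearest coding row, 181 features were divergent, 49 were convergent (3' ends facing), 135 lay upstream of a gene on the same strand and 59 downstream of one. RefSeq held 378 of them by ID, 33 with a symbol.

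The most abundant member was mrp1 (SPNCRNA.82, I:1234451-1234849), the RNA of RNase MRP, which cleaves precursor ribosomal RNA. It stood at 5799 and 6432 CPM in wild type, 5643 and 6509 in nht1, 7411 and 6565 in iec1 and 5655 and 5799 in iec5. It took 59.6% to 65.6% of all member counts. Its iec1 libraries were the highest, above both wild-type ones, a difference that did not pass the test (log2 fold change 0.19, edgeR adjusted p = 0.434). By wild-type level per length it stood at 15328 ± 1122 CPM per kb (SD, n = 2). Next came the mitochondrial RNA SPMITNCRNA.01 at 3347 ± 1349, SPNCRNA.475 at 2571 ± 1488 and SPNCRNA.1095 at 1609 ± 205 CPM per kb (SD, n = 2 each). SPNCRNA.475 and SPNCRNA.1095 lie 142 and 788 bases from a ribosomal RNA gene, the class of RNA that the depletion step removes. The small RNA SPNCRNA.120, annotated as expressed in stationary phase and quiescence, followed at 260 ± 9.54, then SPNCRNA.403 at 242 ± 58.9, SPNCRNA.1094 at 181 ± 10.5 and SPNCRNA.757 at 128 ± 16.3 CPM per kb. The spread of SPMITNCRNA.01 and SPNCRNA.475 between the wild-type libraries was large: SPNCRNA.475 was at 681 and 286 CPM, and the order of ranks 2 to 4 does not hold beyond it. The small nucleolar RNA sno530 (85.2 ± 47.0) and SPNCRNA.1600 (79.6 ± 4.41) closed the 10 highest in CPM per kb.

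**Figure D1:**
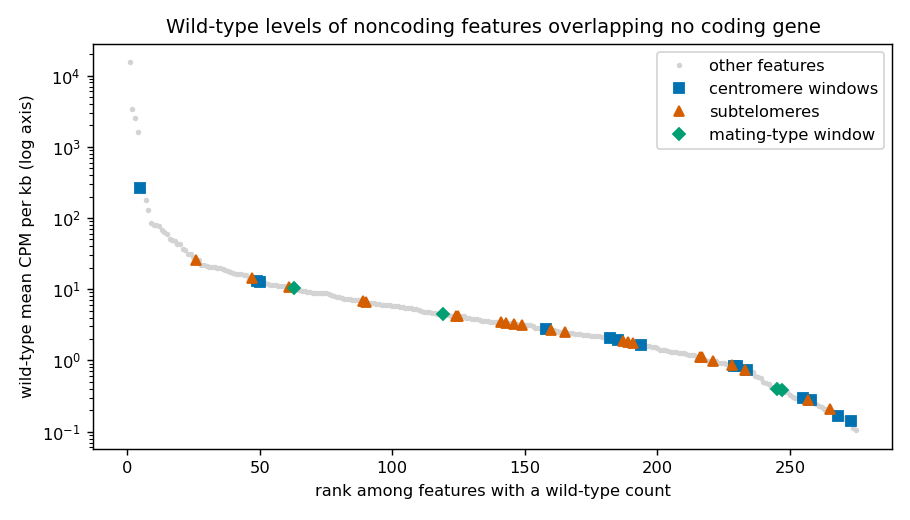
Wild-type level (mean of 2 libraries, CPM per kb, log axis) against rank for the 275 features with a wild-type count. Squares mark features in windows over the centromeres, triangles those within 100 kb of a telomere-side end of chromosome I or II, diamonds those in a window over the mating-type locus, and grey points the others. The top 4 features stand at 1609 CPM per kb or more while the median is 3.50, and the marked regions are spread over the middle and low ranks apart from SPNCRNA.120 at 260.

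The summed level of all members differed little between groups. It was 9735 and 10741 CPM in wild type, 8598 and 10376 in nht1, 11466 and 10732 in iec1 and 8923 and 9318 in iec5. Only the iec5 pair lay wholly below the wild-type pair. An exact permutation test of 2 against 2 libraries cannot go below a two-sided p of 0.33. Without mrp1 the sums were 3936 and 4308 in wild type, 2955 and 3867 in nht1, 4055 and 4167 in iec1, and 3268 and 3519 in iec5. By these sums nht1 and iec5 both lay below wild type and iec1 lay within it. A large part of them came from SPMITNCRNA.01, SPNCRNA.475 and SPNCRNA.1095. SPNCRNA.1095 alone stood at 761 and 912 CPM in wild type, 584 and 724 in nht1 and 574 and 329 in iec5. SPMITNCRNA.01 stood at 656 and 1178, 411 and 760, and 624 and 868 in the same groups. The order of the groups is thus not shown for the other members. Of the 424 members, 142 passed the low-count filter and were tested, together with the other noncoding rows, 1096 in all. On the first principal component of the tested members, which held 35.3% of the variance, all wild-type and iec5 libraries were negative and all nht1 and iec1 libraries positive.

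Against wild type, 5 members rose and 2 fell in nht1, 15 rose and 4 fell in iec1, and 2 rose and 1 fell in iec5. These are calls of the edgeR quasi-likelihood test at a Benjamini-Hochberg adjusted p under 0.05 over all 1096 rows. Over all tested noncoding rows 6.57% were called in nht1 (5.29% higher, 1.28% lower), and of tested members 4.93% were. In iec1 the background was 14.7% (12.3% higher, 2.37% lower) and the members' share 13.4%. In iec5 the background was 1.46% (1.0% higher, 0.456% lower) and the members' share 2.11%. These shares lie near the background, so the number of calls says nothing particular about features that overlap no gene. The median log2 fold change of tested members was -0.16 in nht1, -0.01 in iec1 and -0.09 in iec5, beside 0.02, 0.08 and 0.01 for all tested noncoding rows. In all, 23 members were called in at least 1 strain. The 3 comparisons share the wild-type libraries.

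**Figure D2:**
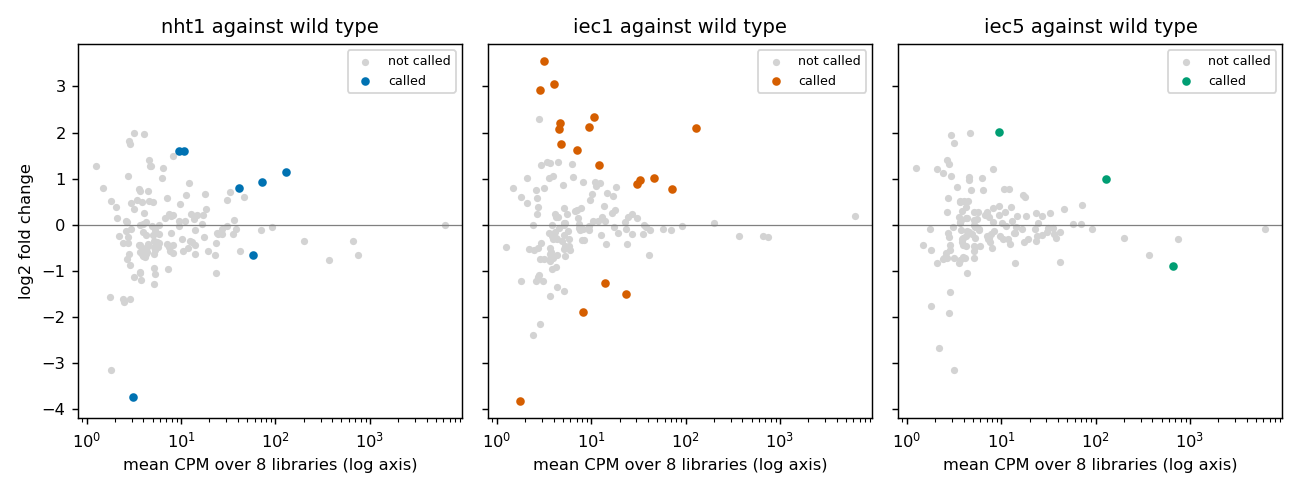
Log2 fold change against wild type (vertical) by mean CPM over the 8 libraries (horizontal, log axis) for the 142 tested members, in nht1, iec1 and iec5. Coloured points are members called at adjusted p under 0.05 and grey points were not called. The libraries labelled iec1 have 19 coloured points, 15 of them above 0, against 7 for nht1 and 3 for iec5.

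SPNCRNA.1153 (III:717659-718923, plus strand, 1265 bases) and SPNCRNA.738 (I:1359979-1360931, minus strand, 953 bases) were the members called in all 3 strains, and both rose. SPNCRNA.1153 has no known role, and RefSeq annotates a pseudogene over the same stretch. It stood at 51.6 and 57.8 CPM in wild type, 121 and 121 in nht1, 193 and 272 in iec1 and 79.1 and 137 in iec5. All 6 libraries labelled as deletions lay above both wild-type ones, and iec1 lay above every other group. The log2 fold change was 1.14 in nht1 (SE 0.20, adjusted p = 0.000574), 2.09 in iec1 (SE 0.20, adjusted p = 3.38e-08) and 0.99 in iec5 (SE 0.20, adjusted p = 0.00731), all from edgeR. The iec1 level also exceeded that of nht1 by 0.95 (SE 0.19, edgeR adjusted p = 0.00953) and that of iec5 by 1.11 (SE 0.19, edgeR adjusted p = 0.000375) on the log2 scale. The nht1 and iec1 calls against wild type were kept in every alternative fit. The iec5 call was lost without wild-type replicate 1, without iec5 replicate 2 or with coding and noncoding rows in 1 fit (adjusted p = 0.0554 to 0.556), and the difference between iec1 and nht1 without either nht1 library, without iec1 replicate 2 or in that joint fit (0.0664 to 0.55).

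The coding genes on either side of SPNCRNA.1153 did not move alike. Its upstream noncoding neighbour SPNCRNA.472 (III:715986-717312, same strand) was far fainter, at 1.81 and 2.75 CPM in wild type, 6.42 and 8.81 in iec1. The log2 fold change of SPNCRNA.472 was 1.28 in nht1 and 0.75 in iec5, above 0 but not called (edgeR adjusted p = 0.229 and 0.907). Both iec1 libraries lay above both wild-type ones, and the rise was called in iec1 alone among the 3 comparisons (log2 fold change 1.74, SE 0.56, edgeR adjusted p = 0.0344), while no difference between strains was called for it. That call was lost without any 1 of the wild-type or iec1 libraries, with DESeq2 and with 2 groups only (adjusted p = 0.0517 to 0.263). Transcribed away from both is bfr1, for a brefeldin A efflux transporter of the plasma membrane. It rose in nht1 (log2 fold change 0.72, SE 0.19, edgeR adjusted p = 0.0414) and iec1 (1.03, SE 0.19, adjusted p = 0.00161), and stood at 0.72 in iec5 (SE 0.19, adjusted p = 0.208). On the other side wee1, for the kinase that holds back mitosis, stood at 0.15, -0.10 and 0.21 in log2 fold change in nht1, iec1 and iec5 and was not called.

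SPNCRNA.738 leaves the promoter region of pas1, which encodes a cyclin, on the opposite strand. It stood at 3.02 and 3.06 CPM in wild type, 7.86 and 10.9 in nht1, 11 and 15.3 in iec1 and 10.5 and 14.3 in iec5. Wild type lay below all 6 other libraries. The log2 fold change was 1.61 in nht1 (SE 0.46, adjusted p = 0.0324), 2.12 in iec1 (SE 0.44, adjusted p = 0.00138) and 2.02 in iec5 (SE 0.44, adjusted p = 0.00998), from edgeR. The gene pas1 itself rose in iec1 (log2 fold change 0.98, SE 0.18, edgeR adjusted p = 0.00138) and stood at 0.51 in nht1 (SE 0.18, adjusted p = 0.136) and 0.19 in iec5 (SE 0.18, adjusted p = 0.993). The iec1 call of SPNCRNA.738 was kept in every alternative. The nht1 call was lost without any 1 of the wild-type or nht1 libraries, with DESeq2 and with 2 groups only (adjusted p = 0.0543 to 0.236), and the iec5 call without either wild-type library or without iec5 replicate 2 (0.072 to 0.212).

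**Figure D3:**
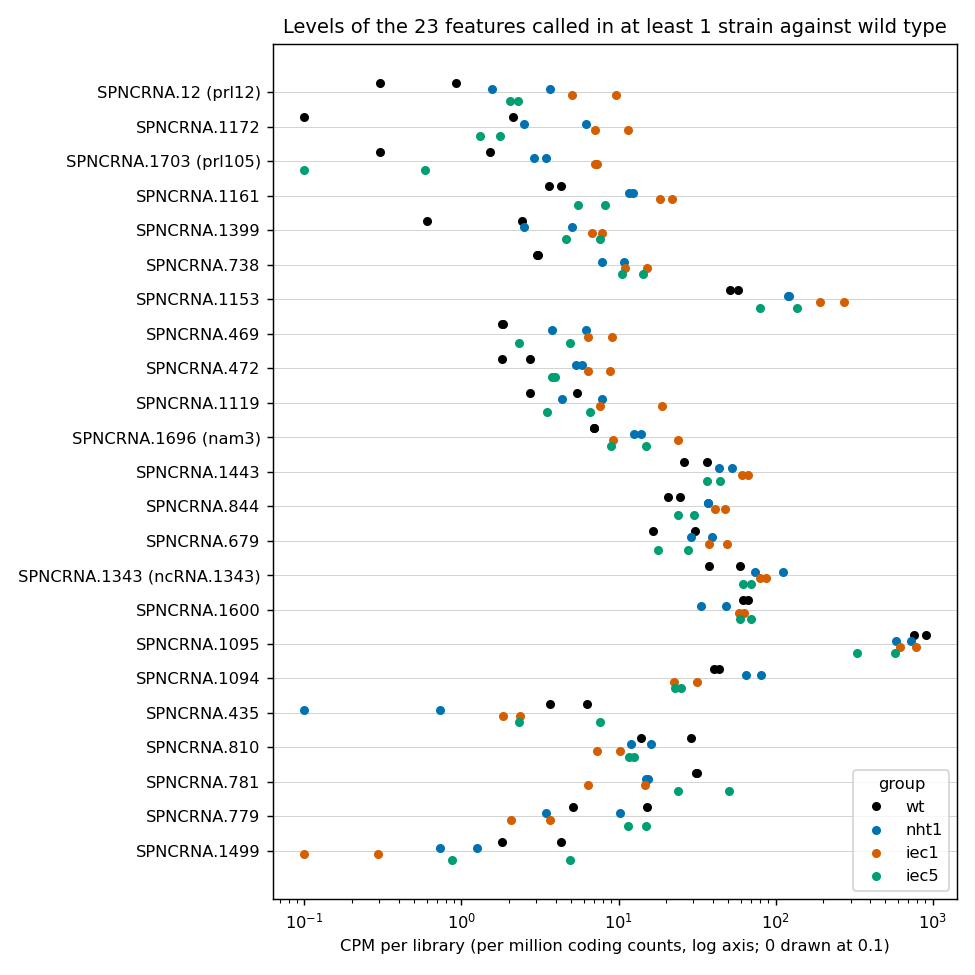
Level of the 23 members called in at least 1 strain against wild type, in CPM on a log axis, with 1 point per library and a colour per group (2 libraries each, values of 0 drawn at 0.1). Members are ordered by their change in iec1. SPNCRNA.1153 and SPNCRNA.738 have all 6 other libraries to the right of both wild-type ones, and SPNCRNA.1095 is the most abundant of the set, at 761 and 912 CPM in wild type.

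In nht1 the other rises were SPNCRNA.1161, SPNCRNA.1343 and SPNCRNA.1094. SPNCRNA.1161 (III:916866-917400, plus strand) lies divergent from ada2, for a subunit of the histone acetylating complex SAGA. It stood at 3.62 and 4.28 CPM in wild type, 11.6 and 12.4 in nht1, 22.0 and 18.5 in iec1 and 8.23 and 5.54 in iec5. No groups overlapped, and their order from low to high was wild type, iec5, nht1, iec1. The log2 fold change was 1.59 in nht1 (SE 0.41, edgeR adjusted p = 0.0167) and 2.34 in iec1 (SE 0.39, edgeR adjusted p = 0.000131). The iec1 call was kept in every alternative, and the nht1 call was lost without any 1 of the wild-type or nht1 libraries and with 2 groups only (adjusted p = 0.0534 to 0.107). Its neighbour ada2 rose in iec1 (1.09, SE 0.30, edgeR adjusted p = 0.027) and stood at 0.76 in nht1 (SE 0.31, adjusted p = 0.206). The ribosomal protein gene rps1702 on the other side stood at 0.02 in both.

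SPNCRNA.1343 (II:354031-355573, plus strand) is annotated as a bidirectional RNA of nc-tgp1, the noncoding RNA that represses tgp1 when phosphate is plentiful. It stood at 37.4 and 59.6 CPM in wild type, 73.9 and 112 in nht1, 79.8 and 86.3 in iec1 and 61.6 and 69.7 in iec5. All 6 other libraries were above both of wild type, those of iec5 by the least. The log2 fold change was 0.93 in nht1 (SE 0.21, edgeR adjusted p = 0.00654) and 0.78 in iec1 (SE 0.21, edgeR adjusted p = 0.0136). It was 0.44 in iec5 and not called there (edgeR adjusted p = 0.71). Both coding neighbours were called too: tgp1, for a glycerophosphodiester transporter, rose by 0.97 in nht1 (SE 0.24, edgeR adjusted p = 0.0288) and 1.15 in iec1 (SE 0.24, edgeR adjusted p = 0.00457). The uncharacterised gene SPBC1271.08c rose by 1.08 in nht1 (SE 0.21, edgeR adjusted p = 0.00667) and 1.69 in iec1 (SE 0.21, edgeR adjusted p = 3.48e-05). SPNCRNA.1343 overlaps the noncoding row SPNCRNA.1698, and which of them gave the reads is uncertain. Its nht1 call was lost with 2 groups only and when wild-type replicate 1 or nht1 replicate 2 was dropped (adjusted p = 0.0734 to 0.221), and its iec1 call when wild-type replicate 1 or iec1 replicate 2 was dropped (0.111 and 0.209 as the lowest and highest).

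SPNCRNA.1094 and SPNCRNA.1095 are neighbours 29 bases apart on the minus strand near the start of chromosome III, 527 and 788 bases from a ribosomal RNA gene, and they did not move alike. SPNCRNA.1094 (III:23658-23889) stood at 43.8 and 40.3 CPM in wild type, 80.8 and 64.7 in nht1, 31.6 and 22.6 in iec1 and 25 and 23 in iec5. The nht1 pair lay above wild type and the iec1 and iec5 pairs below it. The rise in nht1 was called (log2 fold change 0.79, SE 0.21, edgeR adjusted p = 0.0192), and was lost without either wild-type library, without nht1 replicate 1 and with DESeq2 (adjusted p = 0.0578 to 0.213). In iec1 and iec5 it stood at -0.66 and -0.81 (edgeR adjusted p = 0.0527 and 0.0877). SPNCRNA.1095 (III:23919-24438) stood at 761 and 912 CPM in wild type, 584 and 724 in nht1, 788 and 623 in iec1 and 574 and 329 in iec5. It was the single member that fell in iec5 (log2 fold change -0.89, SE 0.19, edgeR adjusted p = 0.00905), and the call was lost without wild-type replicate 2, without iec5 replicate 2, in the joint fit and with DESeq2 (adjusted p = 0.0567 to 0.496). The 8 members within 1 kb of a ribosomal RNA gene summed to 1506 and 1256 CPM in wild type, 886 and 1164 in nht1, 1287 and 1052 in iec1 and 852 and 736 in iec5, and the part of the ribosomal RNA depletion in these values was not tested.

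The falls in nht1 were SPNCRNA.435 and SPNCRNA.1600. SPNCRNA.435 (II:4032744-4033172) stood at 6.34 and 3.67 CPM in wild type and 0 and 0.727 in nht1. It had 1.83 and 2.35 CPM in iec1 and 7.58 and 2.33 in iec5, where it was not called, so the nht1 libraries were the lowest. On pooled counts, 33 in wild type and 2 in nht1, the wild-type level was 14.9 times that of nht1 (95% interval, exact and conditional, 3.8 to 128, for counting error; edgeR adjusted p = 0.0217). That call was lost with DESeq2 and when wild-type replicate 1 or nht1 replicate 1 was dropped (adjusted p = 0.0517 to 0.198). SPNCRNA.1600 (II:3460382-3461190), annotated as a possible alternative untranslated region, abuts dcd1, for deoxycytidylate deaminase. It stood at 61.9 and 66.9 CPM in wild type and 33.3 and 48.4 in nht1 (log2 fold change -0.66, SE 0.20, edgeR adjusted p = 0.0453). Wild type lay above both nht1 libraries, while dcd1 stood at 0.26 and was not called. Its call was lost without any 1 of 5 libraries (either wild-type, nht1 replicate 1, either iec5), with DESeq2, in the joint fit and with 2 groups only (adjusted p = 0.0517 to 0.405).

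In iec1 the 3 largest rises were of faint RNAs. The polyadenylated RNA prl12 (SPNCRNA.12, I:4439118-4439451) stood at 0.302 and 0.917 CPM in wild type and 5.04 and 9.69 in iec1. On pooled counts of 44 against 4 this was 13 times higher (95% interval, exact and conditional, 4.72 to 49.7, for counting error), with an edgeR log2 fold change of 3.55 (SE 0.79, adjusted p = 0.00239). Both nht1 libraries (1.57 and 3.64) and both of iec5 (2.31 and 2.04) lay between them. The centromere-proximal RNA SPNCRNA.1172 (III:1068597-1069142) stood at 0 and 2.14 CPM in wild type and 11.5 and 7.05 in iec1 (log2 fold change 3.04, SE 0.78, edgeR adjusted p = 0.00744). It lies 23 bases from a tRNA gene and overlaps the noncoding row SPNCRNA.481, so the source of its reads is uncertain. The RNA prl105 (SPNCRNA.1703, I:5524158-5524668), annotated as repressed by Pdc2, lies in a subtelomere. It stood at 0.302 and 1.53 CPM in wild type, 3.46 and 2.91 in nht1, 7.34 and 7.05 in iec1 and 0 and 0.583 in iec5, so iec1 lay above all other groups and iec5 overlapped wild type. The iec1 rise was 2.92 (SE 0.77, edgeR adjusted p = 0.00915). The calls of these 3 were lost without iec1 replicate 2 (prl12, adjusted p = 0.074), without wild-type replicate 1 or iec1 replicate 1 (SPNCRNA.1172, 0.0596 to 0.099) and without wild-type replicate 1 (prl105, 0.12).

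The genes beside prl105 rose with it in iec1. The amidase gene SPAC869.01, divergent from prl105 at a gap of 976 bases, rose by 3.22 on the log2 scale (SE 0.58, edgeR adjusted p = 0.00138), and pfl9, for a DIPSY-family cell surface glycoprotein, by 1.26 (SE 0.27, edgeR adjusted p = 0.0047). Beside prl12, leu2, for an enzyme of leucine synthesis, stood at 0.11 and was not called. Beside SPNCRNA.1172, the checkpoint kinase gene chk1 stood at 0.28 and was not called.

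Further rises in iec1 were of SPNCRNA.1399, SPNCRNA.469 and SPNCRNA.1119. In nht1 and iec5 none of them was called, but their log2 fold changes lay above 0 there too. These were 1.28 and 1.98 for SPNCRNA.1399, 1.42 and 0.96 for SPNCRNA.469, and 0.59 and 0.28 for SPNCRNA.1119. SPNCRNA.1399 (II:948888-950045) stood at 0.604 and 2.45 CPM in wild type and 7.79 and 6.75 in iec1 (log2 fold change 2.22, SE 0.66, edgeR adjusted p = 0.0223), divergent from gap1, for the GTPase-activating protein of Ras, which was not called at 0.34. It overlaps the noncoding row SPNCRNA.335. SPNCRNA.469 (III:677382-678918) stood at 1.81 and 1.83 CPM in wild type and 6.42 and 9.10 in iec1 (log2 fold change 2.09, SE 0.61, edgeR adjusted p = 0.02). It is divergent from skb15, whose product inhibits a p21-activated kinase and which stood at 0.31 and was not called. SPNCRNA.1119 (III:217516-218406), which overlaps a retrotransposon long terminal repeat in RefSeq, stood at 5.44 and 2.75 CPM in wild type and 18.8 and 7.63 in iec1 (log2 fold change 1.63, SE 0.53, edgeR adjusted p = 0.0378). In each case both iec1 libraries lay above both of wild type. The SPNCRNA.1399 call was lost when wild-type replicate 1 or either iec1 library was dropped (adjusted p = 0.0699 to 0.209), and that of SPNCRNA.469 when either wild-type library or iec1 replicate 2 was dropped (0.0972 to 0.183). The call of SPNCRNA.1119 was lost without wild-type replicate 2 or iec1 replicate 1, under the noncoding table's own scaling, with 2 groups only, in the joint fit and with DESeq2 (0.0526 to 0.488).

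Of the smaller rises called in iec1, 3 are named here after their values were seen. SPNCRNA.1443 (II:1554843-1557638) stood at 36.8 and 26.3 CPM in wild type and 66.5 and 60.8 in iec1 (log2 fold change 1.01, SE 0.21, edgeR adjusted p = 0.00172), and this call was kept in every alternative. Its neighbour isp4, for an oligopeptide transporter, rose by 1.12 (SE 0.28, edgeR adjusted p = 0.014), while rpl26, on the other side, stood at 0.02. SPNCRNA.844 stood at 20.5 and 24.8 CPM in wild type and 47.7 and 41.1 in iec1 (0.96, SE 0.23, edgeR adjusted p = 0.00386), lost without wild-type replicate 1 (adjusted p = 0.0586). Beside SPNCRNA.844, the kinase gene cdr1, divergent at a gap of 21 bases, stood at -0.02 in iec1 and was not called. The gene bcs1 on the other side stood at 0.63 (SE 0.20, edgeR adjusted p = 0.0529). SPNCRNA.679 stood at 30.5 and 16.5 CPM in wild type and 37.6 and 49.0 in iec1 (0.89, SE 0.28, edgeR adjusted p = 0.0278). On its other side lies SPAC4G8.04, for a GTPase-activating protein, which rose by 1.03 (SE 0.19, edgeR adjusted p = 0.00168). SPNCRNA.679 starts 5 bases from puf5, for a Pumilio-family RNA-binding protein, which rose by 0.76 (SE 0.22, edgeR adjusted p = 0.0335). Its call was lost without wild-type replicate 2 or iec1 replicate 2, under the noncoding table's own scaling, with 2 groups only, in the joint fit and with DESeq2 (adjusted p = 0.0508 to 0.334).

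The falls in iec1 were 4. SPNCRNA.779 (I:1953735-1954811) and SPNCRNA.781 (I:1954820-1956332) follow each other on the same strand, 8 bases apart, between pcs2, for an enzyme that makes metal-binding phytochelatins, and hsr1, for a stress transcription factor. SPNCRNA.781 stood at 31.1 and 31.5 CPM in wild type, 15.4 and 14.9 in nht1, 6.42 and 14.7 in iec1 and 24.0 and 50.7 in iec5. Both nht1 and both iec1 libraries lay below wild type, and the iec5 pair lay on either side of it. The fall was -1.49 in iec1 (SE 0.34, edgeR adjusted p = 0.00273) and -1.04 in nht1, just outside the threshold (edgeR adjusted p = 0.0506). SPNCRNA.779 stood at 5.13 and 15.3 CPM in wild type and 3.67 and 2.06 in iec1 (-1.89, SE 0.59, edgeR adjusted p = 0.0309). Neither pcs2 (-0.13) nor hsr1 (-0.25) was called in iec1. SPNCRNA.779 overlaps the noncoding row SPNCRNA.780 and SPNCRNA.781 overlaps SPNCRNA.782, so their reads are uncertain as to source. The SPNCRNA.781 call was lost without iec1 replicate 1 (adjusted p = 0.0596), and that of SPNCRNA.779 without wild-type replicate 2, iec1 replicate 2 or iec5 replicate 2, with 2 groups only and in the joint fit (0.0512 to 0.48).

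SPNCRNA.810 (I:2290391-2291538) stood at 13.9 and 29.0 CPM in wild type and 7.34 and 10.3 in iec1 (log2 fold change -1.25, SE 0.36, edgeR adjusted p = 0.0186). Both iec1 libraries lay below both of wild type, but the wild-type libraries differed from each other by more than the lower one differed from iec1. The call was lost with 2 groups only and when wild-type replicate 2 or iec1 replicate 1 was dropped (adjusted p = 0.0508 to 0.42). SPNCRNA.1499 (II:2265286-2265818), divergent from opi10, for a nuclear import carrier, had 20 counts in wild type and 1 in iec1. The wild-type level was 17.0 times that of iec1 (95% interval, exact and conditional, 2.71 to 703, for counting error; edgeR adjusted p = 0.0478), and the call was lost without wild-type replicate 2, either nht1 library, either iec1 library or iec5 replicate 1, in the joint fit and with DESeq2 (adjusted p = 0.0501 to 0.279).

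**Figure D4:**
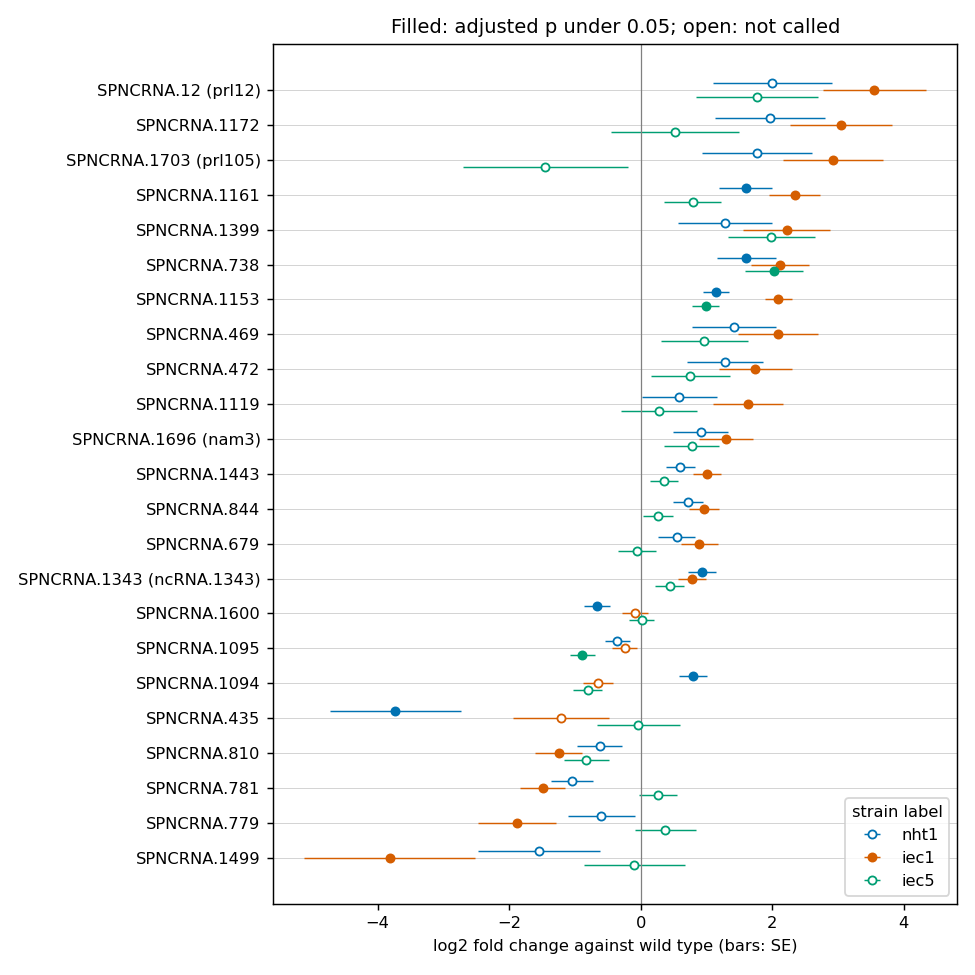
Log2 fold change against wild type, with its standard error as bars, of the 23 members called in at least 1 strain. Filled points passed an adjusted p of 0.05 and open points did not. SPNCRNA.1153 and SPNCRNA.738 are filled in all 3 colours, and SPNCRNA.1094 lies at 0.79 in nht1 but at -0.66 and -0.81 in iec1 and iec5.

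Arrangement relative to the nearest coding gene was set beside the calls in iec1. Of 64 divergent members tested, 10 rose and 2 fell, or 18.8%, beside the background of 14.7%. Of 26 convergent ones 3 rose, of 35 upstream of a gene on the same strand 2 rose and 1 fell, and of 17 downstream of one 1 fell. These shares were not tested against each other. The nearest coding gene had been tested for 138 of the members and was called for 17 of these in iec1, or 12.3%, beside 10.3% of all tested coding genes. Member and nearest gene were both called in 7 pairs, all of which moved the same way. Of the 7, 6 were divergent, as were 64 of the 138. The gaps of these 6 were 5 bases for SPNCRNA.679, 41 for SPNCRNA.1161 and 134 for SPNCRNA.738. They were 550 for SPNCRNA.472, 976 for prl105 and 2223 for SPNCRNA.1153, so a divergent pair need not share a promoter. SPNCRNA.472 and SPNCRNA.1153 share the gene bfr1 in this count. Since 15 of the 19 members called in iec1 rose, a shared direction is no strong result, and it was not tested. In nht1 the nearest gene was called for 9 of 138 members (6.52%, beside 4.13% of coding genes), and both were called in 2 pairs, which also moved the same way. In iec5 edgeR called 0 nearest genes (7 had an unadjusted p under 0.05), beside 0.408% of coding genes. Across members, Pearson's r between the log2 fold change of a member and that of its nearest gene in iec1 was 0.35 over 138 pairs and 0.47 over the 64 divergent ones. It was 0.43 over the 15 pairs with the member downstream of a gene on the same strand, 0.30 over the 25 convergent ones and 0.03 over the 34 with it upstream of one. Over all pairs it was 0.29 in nht1 and 0.26 in iec5, where the convergent value (0.44) exceeded the divergent one (0.31). Within a strain, the points of this description share the same 4 libraries and the same scaling, and neighbouring members can share a gene.

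**Figure D5:**
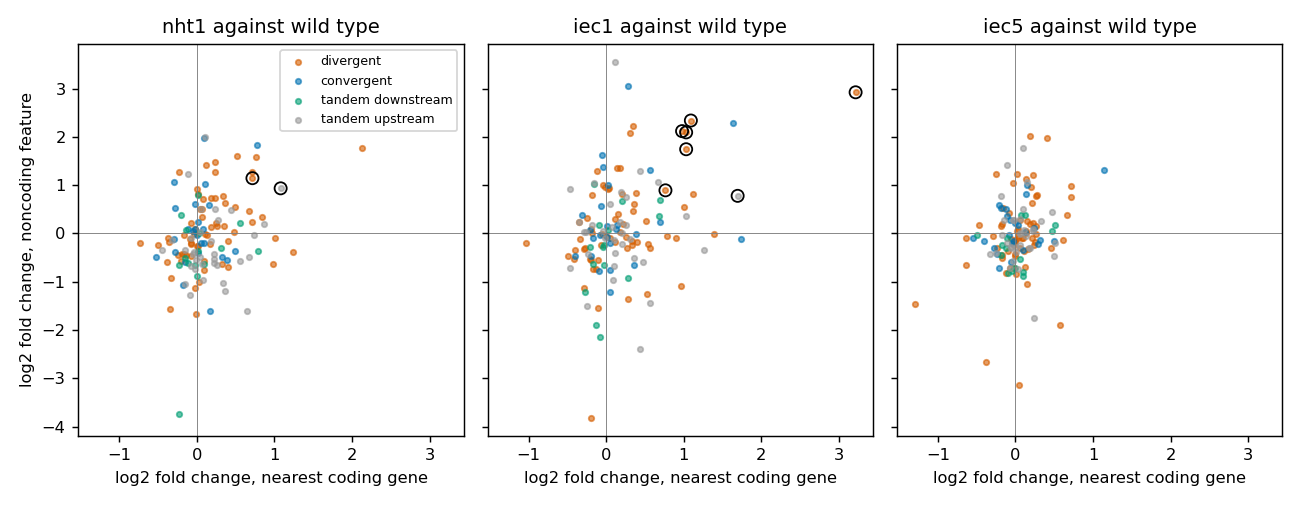
Log2 fold change of each tested member (vertical) against that of its nearest coding gene (horizontal), for 138 pairs in each strain against wild type, coloured by arrangement. Rings mark pairs in which both were called: 2 in nht1, 7 in iec1 and 0 in iec5. All ringed pairs lie at upper right, where both rose.

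Members in regions where heterochromatin forms were mostly too faint to test. Of 36 members in windows over the centromeres, 18 were at 0 in all libraries and 5 were tested. SPNCRNA.1172 was the only member of the 5 called against wild type, higher in iec1, beside 12.3% of all tested noncoding rows. Of 32 members annotated as centromeric or centromere-proximal, 17 were at 0 throughout and all of them together had 381 counts in the 8 libraries. Their summed level was 15.1 and 18.0 CPM in wild type, 10.1 and 18.9 in nht1, 16.5 and 17.3 in iec1 and 15.5 and 13.4 in iec5, and the groups overlapped. The inverted-repeat boundary RNAs of centromere 1 had no count (IRC1-L) and 1 count (IRC1-R). Of 9 members in the mating-type window, 2 were tested and 0 were called. By edgeR, 1 of the 2 had an unadjusted p under 0.05 in nht1 and 1 in iec5, and DESeq2 also called 0. They were prl38, at -1.66 in nht1 (log2 fold change, edgeR adjusted p = 0.26), and SPNCRNA.392, at -2.67 in iec5 (edgeR adjusted p = 0.38). How multi-mapping reads were counted, which bears on centromere repeats, is not stated in the labels.

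Of 34 subtelomeric members 9 were tested, and 2 of them, prl105 and nam3, rose in iec1, beside 12.3% of all tested noncoding rows. At an unadjusted edgeR p under 0.05 there were 4 of the 9 in nht1, 4 in iec1 and 0 in iec5, and DESeq2 called 1 in iec1. The RNA nam3 (SPNCRNA.1696, II:4464625-4466286), one of a set of RNAs associated with the meiotic RNA-elimination factor Mmi1, stood at 6.94 and 7.03 CPM in wild type, 12.6 and 13.8 in nht1, 9.17 and 24.1 in iec1 and 8.89 and 14.9 in iec5. Each of the other 6 libraries was above wild type, and the iec1 libraries lay far apart (log2 fold change 1.30, SE 0.41, edgeR adjusted p = 0.0307). That call was lost when either wild-type library or iec1 replicate 2 was dropped, with 2 groups only, in the joint fit and with DESeq2 (adjusted p = 0.056 to 0.772), and nam3 overlaps the noncoding row SPNCRNA.532. Of 19 prl RNAs 8 were tested, of which prl12 and prl105 rose in iec1, beside the same 12.3%, and DESeq2 also called 2. At an unadjusted edgeR p under 0.05 there were 3 of the 8 in nht1, 2 in iec1 and 0 in iec5. Of 4 meiotic RNAs 2 were tested, and edgeR and DESeq2 called 0 (1 had an unadjusted edgeR p under 0.05, in iec1): omt3 stood at -1.20, -0.59 and 0.10 and meu19 at 1.02, 1.32 and 1.01 in log2 fold change in nht1, iec1 and iec5. Both snoRNA entries were tested and not called by either tool, with 0 at an unadjusted edgeR p under 0.05. Of 14 members that overlap a long terminal repeat, 5 were tested and 1 of them, SPNCRNA.1119, rose in iec1, beside the same 12.3%.

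The strains were also compared with each other. Between iec1 and nht1, 1 member was higher and 1 lower in iec1 (0.547% of all tested rows were called, 0.456% higher and 0.0912% lower), namely SPNCRNA.1153, given above, and SPNCRNA.1094. SPNCRNA.1094 was lower in iec1 than nht1 by a log2 fold change of -1.45 (SE 0.22, edgeR adjusted p = 0.000289). Between iec5 and nht1, 1 was higher and 1 lower in iec5 (1.46% of all tested rows called, 0.274% higher and 1.19% lower). SPNCRNA.1094 was lower in iec5 at -1.60 (SE 0.22, edgeR adjusted p = 7.11e-05), and SPNCRNA.781 was higher in iec5 by 1.31 (SE 0.32, edgeR adjusted p = 0.0412). Both calls of SPNCRNA.1094 were kept in every alternative, and that of SPNCRNA.781 was lost without either nht1 library, without iec5 replicate 2, in the joint fit and with DESeq2 (adjusted p = 0.0866 to 0.606).

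Between iec1 and iec5, 8 members were higher and 2 lower in iec1 (7.76% of all tested rows called, 6.93% higher and 0.821% lower). Among the higher ones, prl105 had 40 counts in iec1 and 2 in iec5, a ratio of 23.1 (95% interval, exact and conditional, 6.0 to 198, for counting error; edgeR adjusted p = 0.00255). SPNCRNA.261 (I:5252427-5252941), divergent from laf1, for a factor of the Clr6 histone deacetylase complex, stood at 3.62 and 2.45 CPM in wild type, 4.72 and 2.91 in nht1, 6.88 and 4.11 in iec1 and 0.329 and 0.292 in iec5. Its counts of 29 against 2 gave a ratio of 16.8 between iec1 and iec5 (95% interval, exact and conditional, 4.24 to 145, for counting error; edgeR adjusted p = 0.00525). The iec5 libraries were the lowest of all, but the fall against wild type did not pass (edgeR adjusted p = 0.163). SPNCRNA.1172 was higher in iec1 than iec5 by 2.52 (SE 0.73, edgeR adjusted p = 0.0307) and SPNCRNA.1161 by 1.55 (SE 0.37, edgeR adjusted p = 0.00678). SPNCRNA.218 (I:3165556-3166062), 9 bases from a ribosomal RNA gene, stood at 18.3 and 23.8 CPM in iec1 and 7.25 and 9.62 in iec5 (1.32, SE 0.34, edgeR adjusted p = 0.014). The lower ones were SPNCRNA.781 at -1.76 (SE 0.33, edgeR adjusted p = 0.000965) and SPNCRNA.779 at -2.26 (SE 0.58, edgeR adjusted p = 0.014).

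Dropping 1 library leaves its group with 1 and lowers the precision, so a lost call need not have rested on that library. In the comparison of iec1 with iec5 this removed most of the calls. They were lost without iec5 replicate 1 (prl105, adjusted p = 0.0693), either iec5 library (SPNCRNA.261, 0.0693 to 0.0834), iec1 replicate 1, either iec5 library or in the joint fit (SPNCRNA.1172, 0.0515 to 0.208), iec1 replicate 1 or iec5 replicate 2 (SPNCRNA.1161, 0.0742 to 0.114), and iec1 replicate 2 or iec5 replicate 1 (SPNCRNA.218, 0.137 to 0.219). The SPNCRNA.781 call was lost without iec5 replicate 2 (0.105) and the SPNCRNA.779 call without iec1 replicate 2 or either iec5 library (0.0528 to 0.144). SPNCRNA.1153 kept its call in every alternative.

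Genes for the machinery that degrades noncoding RNA were set beside these values. Of 33 listed genes for the nuclear exosome, its cofactors, the RNA-elimination machinery and RNAi, 32 were matched and tested, and 0 were called in nht1 or iec5 by edgeR, beside 4.13% and 0.408% of all tested coding genes (6 and 2 of the 32 had an unadjusted p under 0.05). In iec1 1 of the 32 was called, beside 10.3% of all tested coding genes, and 8 had an unadjusted p under 0.05. It was air1, for a zinc-knuckle protein of the polyadenylating TRAMP complex, which fell by 0.76 on the log2 scale (SE 0.19, edgeR adjusted p = 0.0155). The median log2 fold change of the list was -0.09 in nht1, -0.12 in iec1 and -0.00 in iec5, beside 0.02, 0.02 and 0.01 for all tested coding genes.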

How the data were processed

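Counts per feature were made by the authors and deposited as raw counts in 2 tables, 1 of coding and 1 of noncoding rows, for all 8 libraries. Reads were aligned with HISAT2 2.1.0 to ASM294v2 and counted with featureCounts 1.6.1, and differences were tested with DESeq2 1.28.0, per the submitters' processing notes. Neither the strand setting of the counting, nor how multi-mapping reads and filters were treated, is stated in the labels. The kit was strand-specific, but reads of features that overlap another row cannot be assigned with certainty.

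The noncoding counts were tested with the quasi-likelihood F test of edgeR 4.0.16 in R 4.3.3, in 1 fit of all 8 libraries by group, scaled by coding library sizes with coding TMM factors, after edgeR's default filter on low counts. P-values were adjusted over all 1096 tested noncoding rows (Benjamini-Hochberg), and a call is an adjusted p under 0.05. The biological coefficient of variation was 13.1%, and for the coding rows, fitted the same way (4652 tested), 11.9%. Standard errors are approximate, from the fold change and F. The test was run on simulated counts with set changes. In nht1, iec1 and iec5 against wild type it recovered 34%, 42% and 56% of 1.5-fold changes. Of 2-fold changes it recovered 70%, 80% and 70%. The counts were drawn with the spread that the fit itself had estimated, so the check does not cover features that depart from it. Intervals and detection limits cover counting error only, and p-values measure the spread between these libraries, since nothing says they came from separate cultures.

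Members named were the 10 largest rises and falls per strain against wild type (5 between strains) among calls with a mean log2 CPM above 0 and both libraries of a strain on the same side of both of the other group. Members called in all 3 strains, the 10 highest by wild-type CPM per kb and up to 4 per list were named as well. The members, lists and rules were chosen with earlier results of these data known. Alternatives were DESeq2 1.42.0, RLE factors, the noncoding table's own scaling, no filter, a replicate block, 2 groups only, 1 joint fit of both tables, a log2 fold change of at least 1, stricter membership, and leaving out each library. Names, products and sequences came from RefSeq (ASM294v3), matched by ID. A further 2 noncoding rows are not reported here.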

Additional observations from a re-analysis of the deposited data

Results flagged for a closer look

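The results below were singled out because the log2 fold change against wild type was above 0 in a strain and below 0 in another. The difference between those strains was itself called by the edgeR quasi-likelihood test. For no member listed were both of these changes against wild type called, so opposite effects of the strains are not shown. In iec5, SPNCRNA.781 stood at 0.27 and SPNCRNA.779 at 0.37 against wild type (edgeR adjusted p = 0.96 each), and prl105 overlapped wild type. SPNCRNA.1094 was lower in iec1 than in nht1 by a log2 fold change of -1.45 (edgeR adjusted p = 0.000289) and lower in iec5 than in nht1 by -1.6 (edgeR adjusted p = 7.11e-05). SPNCRNA.781 was higher in iec5 than in nht1 by 1.31 (edgeR adjusted p = 0.0412) and lower in iec1 than in iec5 by -1.76 (edgeR adjusted p = 0.000965). SPNCRNA.779, which lies 8 bases before it, was lower in iec1 than in iec5 by -2.26 (edgeR adjusted p = 0.014). Higher in iec1 than in iec5 were prl105 (SPNCRNA.1703) by 4.37, SPNCRNA.261 by 3.94, SPNCRNA.218 by 1.32 and SPNCRNA.679 by 0.95 (edgeR adjusted p = 0.00255, 0.00525, 0.014 and 0.0319). The values of prl105 and SPNCRNA.261 rest on 2 counts in iec5 each. The SPNCRNA.679 call was lost without iec1 replicate 2 or iec5 replicate 2, under the noncoding table's own scaling, in the joint fit and with DESeq2 (adjusted p = 0.0565 to 0.36). SPNCRNA.679 itself was at 0.89 in iec1 and -0.06 in iec5 against wild type.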

How the results depend on the processing

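Of all 43 calls of members over the 6 comparisons, 8 were kept in every alternative fit and 35 were lost in at least 1. For the 35 calls picked by the naming rule, no alternative reversed the direction. The cause of these changes was not tested. Low counts and 2 libraries per group limit the precision. In nht1 against wild type the 7 called members became 12 with no low-count filter, 4 with 2 groups only, 3 with DESeq2, 4 with a log2 fold change of at least 1, 3 among members at least 500 bases from coding rows, and 2 to 10 when each library was left out. In iec1 the 19 became 12 with 2 groups only, 8 among members at least 500 bases away and 12 to 20 when each library was left out. In iec5 the 3 became 1 in the joint fit, 1 with a log2 fold change of at least 1, and 0 to 3 when each library was left out (0 without iec5 replicate 2). Between iec1 and nht1 the 2 became 1 in the joint fit, 1 with the fold minimum and 1 to 2 when each library was left out. Between iec5 and nht1 the 2 became 4 with no filter, 5 with 2 groups only, 1 in the joint fit, 1 with DESeq2, 1 among members overlapping no other noncoding row and 1 to 3 when each library was left out. Between iec1 and iec5 the 10 became 6 among members at least 500 bases away and 3 to 12 when each library was left out (3 without iec5 replicate 2, 5 without iec5 replicate 1). Among fits that left out 1 library, the nht1 count was 2 without wild-type replicate 1 and 2 without nht1 replicate 1, the iec1 count 12 without wild-type replicate 1, and the iec5 count 1 without wild-type replicate 1. The summed member level over wild type went from 0.927 to 0.827 in nht1 and from 1.08 to 0.997 in iec1 without mrp1.

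The libraries share replicate numbers across groups. Deviations of same-numbered libraries correlated at 0.0776 to 0.168 over the 6 pairs of groups, all above 0 but under 0.1 in 2 of them. Pairing was assumed only if every pair reached 0.1, so the main fit has no replicate term. On the second principal component of the tested members (18.5% of the variance), every replicate 1 library was positive and every replicate 2 library negative. The libraries thus differ by replicate number in every group, and the source of this shift was not tested. A replicate block raised the calls to 15 in nht1, 25 in iec1 and 5 in iec5 against wild type, 4 between iec1 and nht1, 7 between iec5 and nht1 and 16 between iec1 and iec5.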

Other observations

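The meiotic RNA meu19 (SPNCRNA.29) stood at 2.11 and 4.59 CPM in wild type, 5.03 and 8.73 in nht1, 6.88 and 9.69 in iec1 and 6.26 and 7.29 in iec5. All 6 other libraries lay above both wild-type ones, without passing the edgeR test in any strain (adjusted p = 0.31, 0.1 and 0.74). The RNA fbp1-ot2 (SPNCRNA.1326), which is transcribed upstream of the glucose-repressed gene fbp1, had 0.302 and 0 CPM in wild type and 0.292 to 1.38 CPM elsewhere, too few counts to test. The mitochondrial RNA SPMITNCRNA.01 varied widely within groups, at 656 and 1178 CPM in wild type, 411 and 760 in nht1, 621 and 896 in iec1 and 624 and 868 in iec5. In every group replicate 2 was the higher library.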
